A study of Mus musculus with 18 samples.

Results

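The miR-29 family of microRNAs was examined in small RNA sequencing data from BV-2 cells, an immortalised line of mouse microglia, the resident macrophages of the brain. Its members were all features whose name carries mir-29a, mir-29b or mir-29c, which gave 4 hairpins (mmu-mir-29a, mmu-mir-29b-1, mmu-mir-29b-2 and mmu-mir-29c, written mir below) and 7 mature arms (written miR), 11 of the 2134 features measured, chosen by name alone. The data comprised 18 samples, 3 in each of 6 groups, which the labels number 22 to 39. The groups were an untreated control, LPS (lipopolysaccharide, a bacterial wall component that activates these cells) at 100 ng/ml for 4 h, CBD (cannabidiol) at 10 μM for 6 h, THC (tetrahydrocannabinol) at 10 μM for 6 h, CBD+LPS and THC+LPS. In the last 2 groups the cannabinoid was given 2 h before LPS. All groups were cultures of a single line, and no source used here says whether the 3 samples of a group came from separate cultures, so that p-values measure only the spread between these samples, which may be technical.

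A microRNA is cut from a hairpin-shaped precursor that leaves a 5p and a 3p arm, and usually 1 arm is loaded onto an Argonaute protein, where its seed (bases 2 to 8) pairs with target mRNAs and lowers their output. In the miR-29 family the 3p arms act as the main guides. Collagens, elastin and other matrix genes, DNA methyltransferases (Dnmt3a, Dnmt3b) and the survival factor Mcl1 are among their well-known targets, and the family rises strongly as neurons mature. A hairpin feature in such data counts reads assigned to the precursor, while the mature features count reads of the arms.

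The mature 3p arms are shown first because they share a seed (in capitals) and differ outside it.
miR-29a-3p: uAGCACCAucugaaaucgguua
miR-29b-3p: uAGCACCAuuugaaaucaguguu
miR-29c-3p: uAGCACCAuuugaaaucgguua
Among 1679 mature names in RefSeq (GRCm38.p6), only these 3 had the seed AGCACCA. Counted from the 5′ end, miR-29a-3p differed from miR-29c-3p by C10U, a single base of 22. miR-29c-3p differed from miR-29b-3p by G18A, U21G and A22U and by 1 extra base at the end of miR-29b-3p. Reads of these arms could therefore be told apart only by a few bases, and how reads that fit several features were counted is not given in the sources used here.

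The 5p arms do not share a seed (again in capitals), and they are shown because those of mir-29a and mir-29c varied alike over the samples.
miR-29a-5p: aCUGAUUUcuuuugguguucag
miR-29c-5p: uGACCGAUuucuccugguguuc
miR-29b-1-5p: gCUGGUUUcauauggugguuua
miR-29b-2-5p: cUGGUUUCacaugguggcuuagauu
miR-29a-5p and miR-29c-5p are related sequences that start at different points. Bases 1 to 20 of miR-29a-5p set against bases 3 to 22 of miR-29c-5p differed at 3 of 20 positions (U3C, U11C and U12C, counted from the 5′ end of miR-29a-5p), and this offset of 2 bases gives them different seeds.

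The 4 hairpins lie in 2 clusters in the mouse genome (GRCm38). Mir29a (chr6:31062660-31062747, minus strand) and Mir29b-1 (chr6:31063023-31063093, minus strand) are 275 bases apart. In GENCODE M21 Mir29a overlaps no other gene, and 2 bases of Mir29b-1 lie in an exon of the long non-coding RNA Gm27019. Mir29b-2 (chr1:195037040-195037120, plus strand) and Mir29c (chr1:195037547-195037634, plus strand) are 426 bases apart, and both lie within an exon of the non-coding transcript A330023F24Rik and, on the opposite strand, within an exon of Cd46, a complement regulator. The hairpin of mir-29c, the member called in 2 of the comparisons below, is shown with its 2 mature arms in capitals.
mir-29c: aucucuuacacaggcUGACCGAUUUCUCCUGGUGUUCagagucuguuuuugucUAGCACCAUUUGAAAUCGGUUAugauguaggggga
miR-29b-3p is cut from both mir-29b-1 and mir-29b-2, and its reads cannot be assigned to either cluster.

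The deposited values are CPM, that is, reads relative to a library size corrected with TMM factors. Whole reads could be recovered from them and summed to between 442718 and 1057147 per sample. Depending on the sample 3 reads were worth 2.98 to 6.38 CPM, which is taken as the detection floor and covers counting error only. miR-155-3p, an LPS-induced microRNA that served to check the labels, lay between 318 and 539 CPM in the 9 samples with LPS and between 8.26 and 19.8 CPM in the 9 without. Myeloid markers were present (miR-142-3p at 1486 to 3318 CPM and miR-223-3p at 48.5 to 178 CPM), with miR-223-5p low at 1.43 to 17.2 CPM. Markers of neurons (miR-124-3p, 4 reads in all), red cells (miR-451a, 12 reads), muscle (miR-1a-3p, 9 reads) and liver (miR-122-5p, 5 reads) were at or near 0. The neuronal list was not absent as a whole, since miR-128-3p lay between 409 and 651 CPM and miR-9-5p between 2.98 and 14.9 CPM, and of the oligodendrocyte list miR-338-3p lay between 30.4 and 145.9 CPM. All samples were bulk cultures of a single line, so these levels do not measure numbers of cells of a type.

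The family took between 0.163 and 0.246% of the reads of a sample, 27989 reads in all. miR-29a-3p was its most abundant member, with a mean of 1392 CPM over the 18 samples (rank 67 of 1279 mature miRNAs) and 68.0% of the family's reads. miR-29a-5p (183 CPM), miR-29c-5p (176 CPM) and miR-29c-3p (174 CPM) followed at similar levels, and miR-29b-3p had 74.9 CPM. Of the 3p arms, which carry the shared seed, miR-29a-3p made up 84.6% ± 2.01, miR-29c-3p 10.7% ± 1.36 and miR-29b-3p 4.65% ± 0.85 (SD, n = 18). The 5p arms of the 29b hairpins were rare, with 154 reads of miR-29b-1-5p and 51 of miR-29b-2-5p in all samples together. The hairpins were rarer still, with mean levels of 13.4 CPM for mmu-mir-29c, 9.81 CPM for mmu-mir-29a, 4.70 CPM for mmu-mir-29b-1 and 1.43 CPM for mmu-mir-29b-2. The 2 arms of mir-29c were thus recovered about equally, whereas the 5p arm made up 11.5% ± 1.37 of the arm reads of mir-29a (SD, n = 18).

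Whether LPS or a cannabinoid altered the guide arms was asked of each 3p arm. No 3p arm passed the test in any comparison of 2 groups (unadjusted p of at most 0.005 in limma with at least 1.5-fold), but miR-29b-3p and miR-29c-3p lay higher in all 3 LPS samples than in all 3 control samples. miR-29b-3p was at 68.1, 73.5 and 58.3 CPM in control and at 94.2, 90.0 and 93.7 CPM in LPS. With a cannabinoid and LPS it was at 73.3, 79.7 and 67.2 CPM (CBD) and at 64.0, 94.6 and 79.1 CPM (THC), and with a cannabinoid alone at 61.7, 69.5 and 75.9 CPM (CBD) and at 71.6, 75.5 and 59.4 CPM (THC). The 3 LPS samples were close to each other, on 72, 68 and 91 reads, where counting error alone could spread them further. All samples with a cannabinoid but THC+LPS sample 33 lay below the LPS samples. The group means of miR-29b-3p were 66.6 ± 7.74 CPM in control and 92.6 ± 2.27 CPM in LPS (SD, n = 3), a log2 fold change of 0.48 (SE 0.22, limma adjusted p = 0.821 over the 1363 features tested).

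miR-29c-3p was at 183, 178 and 125 CPM in control and at 196, 192 and 207 CPM in LPS. With a cannabinoid and LPS it was at 143, 191.3 and 179 CPM (CBD) and at 156, 171 and 176 CPM (THC), and with a cannabinoid alone at 151, 167 and 171 CPM (CBD) and at 151, 179 and 217 CPM (THC). Every LPS sample was above the CBD+LPS and THC+LPS samples, while THC sample 37 was the highest of all. The log2 fold change of miR-29c-3p was 0.31 for LPS versus control (95% interval of -0.13 to 0.75), -0.22 for CBD+LPS versus LPS (-0.66 to 0.22) and -0.24 for THC+LPS versus LPS (-0.68 to 0.20). Groups without overlap were common in this design, since 9.39% of all features had them for LPS versus control (3 of the 11 members, the third being mir-29c), 9.32% for CBD+LPS versus LPS (2 members, miR-29b-3p and miR-29c-3p, both lower) and 7.19% for THC+LPS versus LPS (1 member, miR-29c-3p).

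miR-29a-3p, the dominant guide, was at 1038, 1414 and 1211 CPM in control, at 1203, 1628 and 1727 CPM in LPS, and at 1283, 1271 and 1418 CPM with CBD alone. It was at 955, 1541 and 1778 CPM with THC alone, at 1042, 1647 and 1595 CPM with CBD and LPS, and at 1279, 1528 and 1490 CPM with THC and LPS. The ranges of the groups overlapped, and the first value of each group, which belongs to the samples numbered 22 to 27, was the lowest in 5 of the 6 groups. The group means ran from 1221 ± 188 CPM in control to 1520 ± 279 CPM in LPS (SD, n = 3). In the order of the 6 group means, the ranges of all neighbouring groups overlapped for each of the 3p arms. The 3p arms summed to 1721 ± 251 CPM in the 9 samples with LPS and to 1560 ± 269 CPM in the 9 samples without (SD), a difference smaller than either SD. Both SDs include the lower level of samples 22 to 27. Each run of 6 consecutive sample numbers holds 1 sample of each group, though the labels state no pairing. In all 3 runs the LPS sample was above the control sample for miR-29a-3p and for the sum of the 3p arms. For the sum the values were 1493 against 1289, 1910 against 1665 and 2028 against 1393 CPM. The share of all features with that order was not computed. With a cannabinoid the order was mixed. CBD+LPS was below CBD in samples 22 to 27 (1259 against 1496 CPM) and above it in the other runs. THC+LPS was above THC in samples 22 to 27 (1500 against 1177 CPM) and below it in the other runs (1794 against 1796 and 1745 against 2055 CPM). Averaged within each run, the samples with LPS were above those without, by 96.6, 217.7 and 167.4 CPM for the sum. The same order held for each 3p arm in every run. How many of all features show it was not computed, and the pooled LPS effect called no 3p arm in limma. With these runs as a block the log2 fold change of miR-29a-3p for LPS versus control was 0.31 (SE 0.15, limma adjusted p = 0.642), against an SE of 0.24 without the block, and it was not called in either fit.

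**Figure D1:**
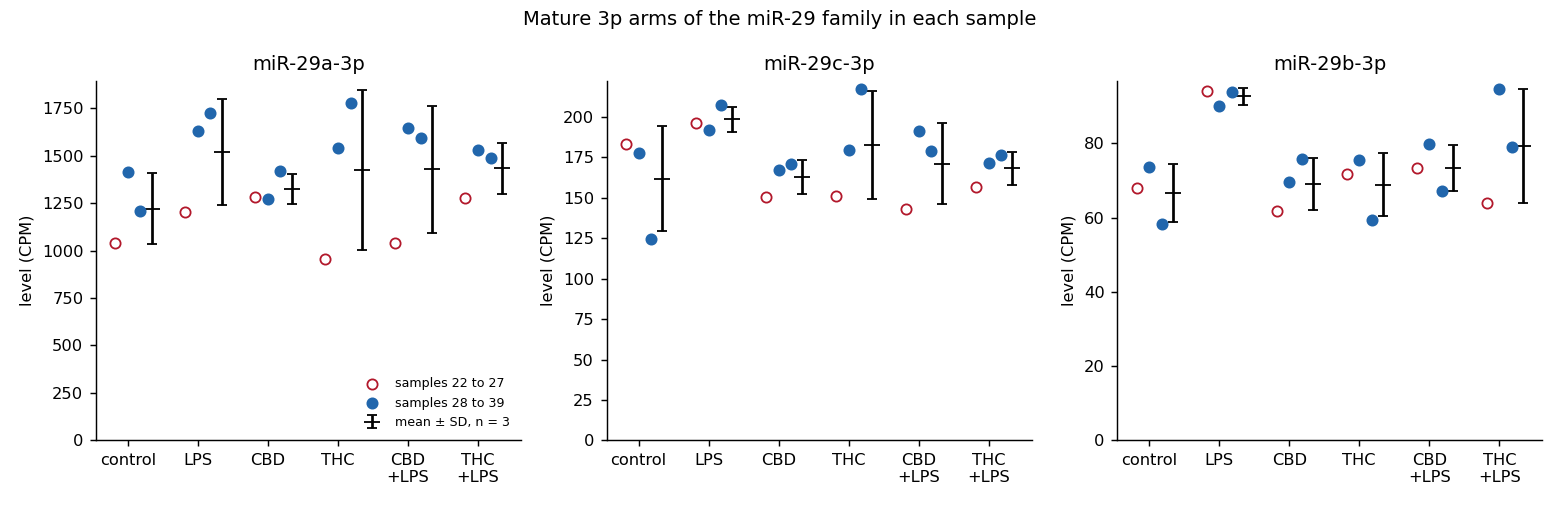
Levels (CPM, axes from 0) of the 3 mature 3p arms in each of the 18 samples by treatment; open circles are samples 22 to 27, filled circles samples 28 to 39, and bars are the mean ± SD of 3 samples. The 3 LPS samples of miR-29b-3p lie between 90.0 and 94.2 CPM, on 68 to 91 reads each. For miR-29a-3p the open circles lie lowest in 5 of 6 groups.

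In the abundant arms the differences that passed a test were between sample numbers, not between treatments, but the rules differed. The term for sample numbers, added after the data were seen, needed an adjusted p of at most 0.1 without a fold limit. Pairs of treatments needed an unadjusted p of at most 0.005 with 1.5-fold. The pooled LPS effect had the same rule as that term and called no mature arm. Samples 22 to 27 hold 1 sample of each group, and the labels do not say how they differ from the rest. miR-29c-5p was at 102 CPM (control), 127 CPM (LPS), 126 CPM (CBD), 106 CPM (THC), 111 CPM (CBD+LPS) and 123 CPM (THC+LPS) in these 6 samples, and at 154.96 to 239 CPM in the 12 samples numbered 28 to 39. The sets did not overlap, with means of 116 ± 10.8 CPM (SD, n = 6) and 205.5 ± 28.5 CPM (SD, n = 12). miR-29a-5p was at 115, 139, 151, 103.4, 126 and 130 CPM in the same samples, in that order, against 152 to 272 CPM in samples 28 to 39, again without overlap. The share of all features without overlap between these sets of samples was not computed, so the separation cannot be called particular to these arms.

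With a term for samples 22 to 27 beside the 6 groups, 3 of the 11 members passed an adjusted p of 0.1 in limma, all lower in samples 22 to 27, where 18.1% of all features passed and 11.7% were lower. These were miR-29c-5p (0.569-fold, log2 -0.81, SE 0.10, adjusted p = 2.67e-05), miR-29a-5p (0.608-fold, log2 -0.72, SE 0.12, adjusted p = 0.000492) and miR-29a-3p (0.745-fold, log2 -0.42, SE 0.09, adjusted p = 0.00298). For miR-29c-3p (log2 -0.13, SE 0.11) and miR-29b-3p (log2 -0.08, SE 0.12) the intervals of the difference included 0. Scaling to miR-191-5p and miR-103-3p as references moved the median of all features in this comparison from -0.02 to 0.24. Under it both 5p arms remained lower (miR-29c-5p at -0.44 and miR-29a-5p at -0.34), miR-29a-3p was at -0.05 (adjusted p = 0.801), miR-29c-3p turned to 0.24 and miR-29b-3p to 0.29, and miR-29b-1-5p passed as higher (0.63, adjusted p = 0.0646).

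The balance of the arms within a hairpin does not depend on the scaling. For mir-29c the 5p arm made up 35.8 to 45.6% of the arm reads in samples 22 to 27 and 48.6 to 56.5% in samples 28 to 39, with means of 41.6% ± 3.58 and 53.3% ± 2.31 (SD, n = 6 and 12). The ratio of 5p to 3p was thus 0.72 ± 0.10 against 1.15 ± 0.10, below 1 in all of the first 6 samples. The 5p share of mir-29a was 10.1% ± 0.57 against 12.1% ± 1.11, ranges that overlapped only narrowly, and for mir-29b it lay the other way, at 18.7% ± 2.84 against 15.8% ± 3.87. For a single sample the precision was set by the depth. For instance, the 5p share of mir-29c in control sample 22, 48 of 134 reads, was 35.8% (95% Wilson interval of 28.2 to 44.2%, counting error only).

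**Figure D2:**
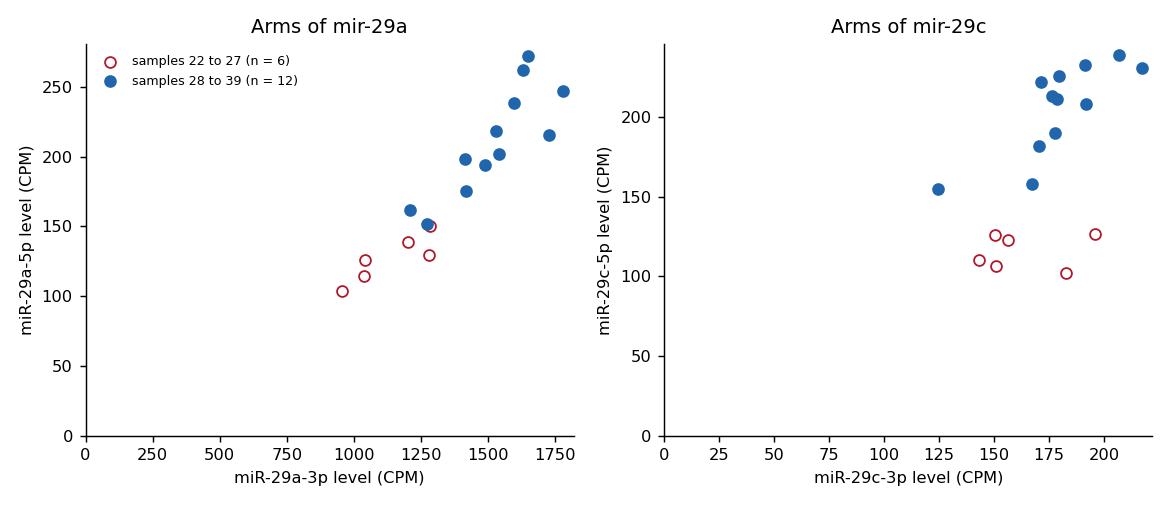
Level of the 5p arm against the 3p arm (CPM, axes from 0) for mir-29a and mir-29c in each of 18 samples; open circles are samples 22 to 27 (n = 6), filled circles samples 28 to 39 (n = 12). For mir-29c the open circles form a band at 102 to 127 CPM of the 5p arm, below all filled circles, while their 3p arm spans 143 to 196 CPM.

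The hairpin mir-29c rose in THC+LPS against control and over all samples with LPS against those without. It had 3, 1 and 8 reads in control, 5, 5 and 6 with CBD alone and 7, 14 and 8 with THC alone. With LPS it had 11, 14 and 12 reads, with CBD and LPS 11, 12 and 16, and with THC and LPS 12, 28 and 14. These correspond to 6.38, 1.71 and 9.32 CPM in control and to 21.3, 33.1 and 16.0 CPM in THC+LPS. All 3 groups with LPS lay wholly above control, and THC sample 31 (16.5 CPM) reached into their range. Ordered by their means, the groups were control (5.80 ± 3.84 CPM), CBD (8.68 ± 1.31), THC (11.4 ± 4.81), LPS (15.1 ± 3.15), CBD+LPS (15.8 ± 3.40) and THC+LPS (23.5 ± 8.73; SD, n = 3), and the ranges of all neighbours in this order overlapped. The hairpin is among the features that the study itself listed as changed in these samples, so its values here are no independent evidence of its direction.

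mir-29c passed the test for THC+LPS versus control, 3.98-fold (log2 1.99, SE 0.48, 95% interval of 0.99 to 2.99, limma adjusted p = 0.0837), where 1.83% of all features were called. With LPS pooled over the 3 cannabinoid states it was 2.10-fold higher (log2 1.07, SE 0.27, adjusted p = 0.0556), 1 member of 11 at an adjusted p of 0.1 where 1.54% of features were called. The 9 samples with LPS lay between 12.4 and 33.1 CPM (18.1 ± 6.37) and the 9 without between 1.71 and 16.5 CPM (8.64 ± 3.98, SD). These ranges overlapped, as they did for every other member, whereas 0.954% of all features had none. For CBD+LPS versus control the log2 fold change was 1.49 (SE 0.48, limma adjusted p = 0.371), short of the threshold. Without THC+LPS sample 33 the call for THC+LPS was lost (log2 1.72, SE 0.53), as it was without control sample 28 (log2 1.43, SE 0.44), where mir-29b-1 was called in its place (log2 2.85), and the pooled call was lost without any of 6 samples (log2 0.99 to 1.06). In samples 28 to 39 alone mir-29c was still called for THC+LPS (log2 2.19), while its pooled LPS difference of 1.06 had a limma adjusted p of 0.177.

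The mature arms of mir-29c were not called for pooled LPS, with a log2 difference of 0.09 for miR-29c-3p (95% interval of -0.17 to 0.35) and 0.19 for miR-29c-5p (-0.24 to 0.62). As a share of all reads assigned to mir-29c and its 2 arms, the hairpin made up 1.96% ± 1.40 in control, 2.65% ± 0.14 with CBD and 2.97% ± 0.84 with THC. It made up 3.80% ± 0.96 with LPS, 4.33% ± 0.61 with CBD and LPS and 6.27% ± 2.03 with THC and LPS (SD, n = 3). Over the samples with LPS this share was 4.80% ± 1.62 and over those without 2.53% ± 0.93 (SD, n = 9). The lowest share was that of control sample 28, 1 read of 216 (0.463%, 95% Wilson interval of 0.0818 to 2.58%), and the highest that of THC+LPS sample 33, 28 of 361 (7.76%, interval of 5.42 to 11.0%). The hairpin of mir-29a, by comparison, lay at 8.03 to 11.2 CPM in the group means and had a log2 difference of 0.03 for pooled LPS (SE 0.25, 95% interval of -0.50 to 0.56).

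**Figure D3:**
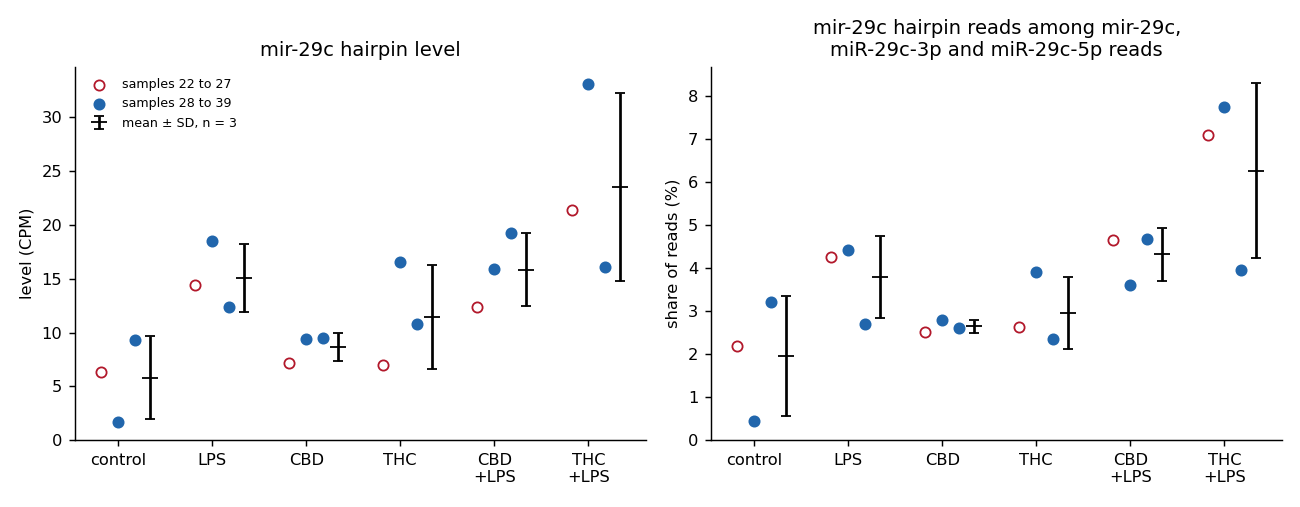
Left, level of the hairpin mir-29c (CPM); right, its share (%) of the reads of mir-29c, miR-29c-3p and miR-29c-5p; each circle is 1 sample (open, 22 to 27; filled, 28 to 39) and bars are the mean ± SD of 3 samples. All samples of the 3 LPS groups lie above the control samples on the left, and THC+LPS has the highest mean in both panels.

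mir-29b-1 was the member called for CBD versus control, on very few reads. It had 0, 2 and 0 reads in control, 9, 4 and 2 with CBD alone and 3, 2 and 0 with THC alone. With LPS it had 6, 2 and 5 reads, with CBD and LPS 5, 3 and 6, and with THC and LPS 4, 3 and 8. Control was thus the lowest group, and the 2 control samples at 0 allow up to 6.38 CPM in sample 22 and up to 3.50 CPM in sample 34. CBD held 15 reads against 2 in control, a ratio of 7.70 after scaling with an exact counting interval of 1.79 to 69.4. In limma the log2 fold change was 2.27 (SE 0.69, adjusted p = 0.254), and 1.61% of all features were called in this comparison. The CBD and control ranges overlapped (CBD sample 36 at 3.16 CPM, control sample 28 at 3.42 CPM). The call was lost in edgeR's quasi-likelihood test on the reads (log2 2.72), in DESeq2 (log2 2.84), in samples 28 to 39 alone (log2 1.501, SE 0.85), with the 3 runs of sample numbers as a block (log2 2.27, SE 0.70) and when any of 12 single samples was left out (log2 1.86 to 2.27). For THC+LPS versus control mir-29b-1 was at log2 2.14 (SE 0.69, adjusted p = 0.335) and for CBD+LPS at 1.98 (SE 0.69, adjusted p = 0.437). Its groups did not overlap control there, as was the case for 2 members (mir-29b-1 and mir-29c) where 7.7% and 9.24% of all features had such groups. For mir-29b-1 the gap lay near the detection floor. The lowest samples were at 3.55 CPM (THC+LPS sample 33, 3 reads) and 3.98 CPM (CBD+LPS sample 32, 3 reads). Control sample 28 was at 3.42 CPM on 2 reads.

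Its cluster partner mir-29a and its own arm miR-29b-1-5p gave no call for CBD (log2 -0.01, SE 0.46, and 0.40, SE 0.40). mir-29b-2, the least abundant member, had at most 3 reads in any sample, and at this depth no difference in it was detectable.

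Across the family the counts of calls were as follows. The F test over the 6 groups called none of the 11 members, against 1.76% of all features at an adjusted p of 0.1, with limma adjusted p = 0.282 for mir-29c and 0.373 for mir-29b-1, the 2 members at an unadjusted p under 0.05 (8.36% of all features). LPS versus control called none (1.54% of all features), with 3 members at an unadjusted p under 0.05 (mir-29c, mir-29b-1 and miR-29b-3p) where 5.87% of all features were. THC versus control called none (0.44%), with mir-29c at log2 0.999 (SE 0.48), and CBD+LPS versus control none (1.39%). At an unadjusted p under 0.05 were 0 members for THC (3.37% of all features) and 2 for CBD+LPS (6.31%, mir-29c and mir-29b-1). On the recovered reads edgeR's quasi-likelihood test and DESeq2 called no member in these 4 comparisons either. No member had groups without overlap for CBD or THC versus control, against 10.2% and 6.82% of all features. The median log2 fold change over the 11 members versus control was 0.31 for LPS (0.11 over all features), 0.09 for CBD (0.00), 0.18 for THC (0.08), 0.21 for CBD+LPS (0.04) and 0.23 for THC+LPS (0.03). These comparisons share the control samples, of which sample 28 had 1 read of mir-29c and samples 22 and 34 none of mir-29b-1.

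**Figure D4:**
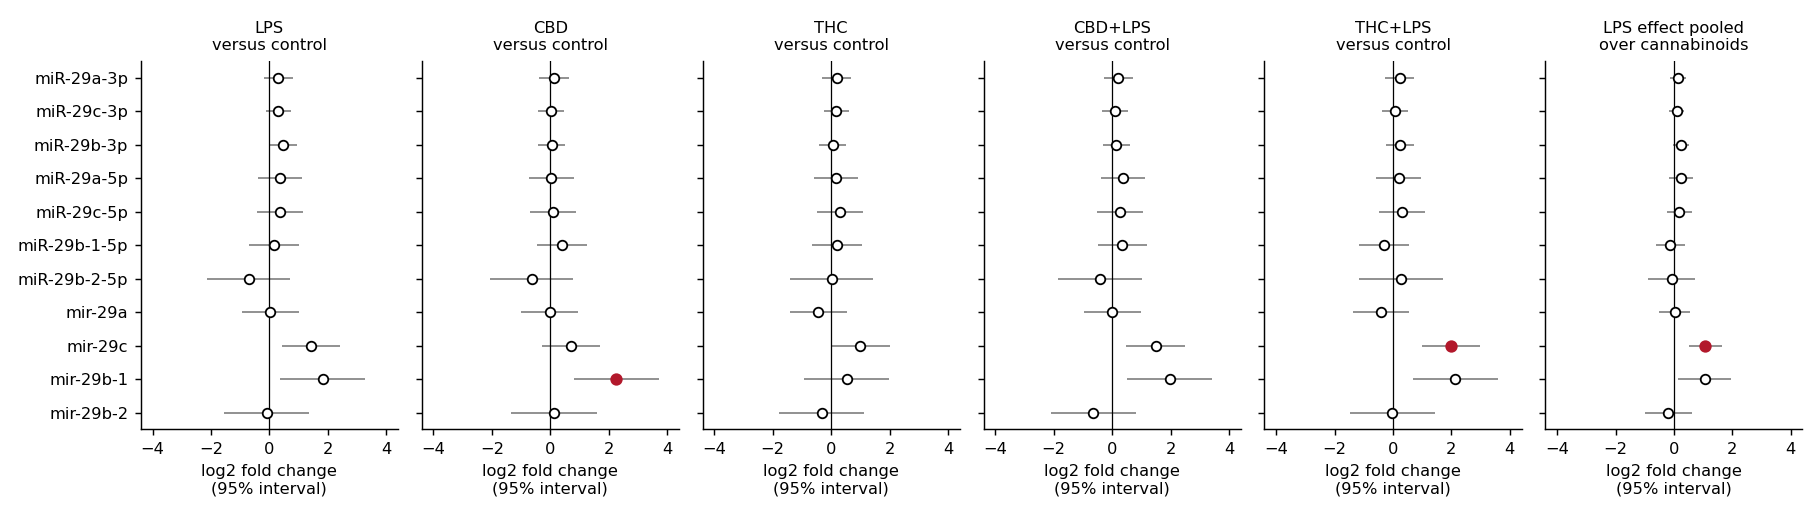
Log2 fold changes of the 11 members with 95% intervals (limma) for each treatment versus control and for LPS pooled over the cannabinoid states; filled red points passed the test of that comparison. No mature arm passed. For LPS versus control the interval ran from -0.40 to 1.12 for miR-29a-5p and from 0.009 to 0.94 for miR-29b-3p. The called points are mir-29b-1 for CBD (2.27) and mir-29c for THC+LPS (1.99) and pooled LPS (1.07).

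Whether a cannabinoid altered the response to LPS was asked against LPS alone and by an interaction. CBD+LPS versus LPS and THC+LPS versus LPS called none of the members in limma (0.22% of all features in each), edgeR or DESeq2, and 0 members were at an unadjusted p under 0.05 (3.23% and 2.35% of all features). For mir-29c the log2 difference was 0.06 (95% interval of -0.94 to 1.07) with CBD and 0.56 (-0.44 to 1.57) with THC. For miR-29b-3p it was -0.34 (-0.80 to 0.13) with CBD and -0.24 (-0.71 to 0.23) with THC. The interactions of CBD and of THC with LPS called no feature at all in limma (0% of features), and no member in edgeR or DESeq2. At an unadjusted p under 0.05 were 4.77% of features for CBD, with mir-29b-1 among them (log2 -2.12, SE 0.98, limma adjusted p = 0.946), and 3.74% for THC, with no member among them.

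CBD and THC are isomers that differ in a ring, closed in THC and open in CBD, and were compared at the same dose and time. CBD versus THC called none of the 11 members in limma, against 3.3% of all features, nor did edgeR or DESeq2, and 1 member was at an unadjusted p under 0.05 (16.2% of all features). The log2 difference was -0.06 (95% interval of -0.56 to 0.44) for miR-29a-3p, -0.15 (-0.59 to 0.29) for miR-29c-3p and 0.01 (-0.46 to 0.47) for miR-29b-3p. It was -0.30 (-1.30 to 0.71) for mir-29c. mir-29b-1, with 15 reads in CBD and 5 in THC, stood at 1.73 (0.28 to 3.19, limma adjusted p = 0.198). Its samples did not overlap in CPM, as in 20.6% of all features, but the gap lay at the detection floor. CBD sample 36 was at 3.16 CPM on 2 reads and THC sample 25 at 2.98 CPM on 3 reads. With LPS present, CBD+LPS versus THC+LPS called none with any of the 3 tools (0.147% of all features in limma), and 0 members were at an unadjusted p under 0.05 (2.64%). There the difference was -0.50 (-1.503 to 0.503) for mir-29c and -0.16 (-1.61 to 1.30) for mir-29b-1. Only miR-29b-1-5p did not overlap (6.53% of all features), at 0.66 (-0.20 to 1.51). Its nearest samples were CBD+LPS sample 38 at 10.80 CPM and THC+LPS sample 27 at 10.66 CPM.

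Over the 18 samples the correlation between members differed from pair to pair. Pearson's r of log2(CPM + 1) was 0.946 between the arms of mir-29a, 0.943 between miR-29a-5p and miR-29c-5p and 0.644 between miR-29a-3p and miR-29c-3p. It was 0.267 between miR-29a-3p and miR-29b-3p and 0.136 between the hairpin mir-29c and miR-29c-3p. These are descriptions over samples that share the scaling and the difference of samples 22 to 27, whose part in r was not tested. Counting error can lower r for members with few reads, and its part was not tested either. Per sample miR-29b-3p had 32 to 91 reads and mir-29c 1 to 28. Among 181 other mature miRNAs with a mean of at least 100 CPM, the most alike to miR-29a-3p were miR-301a-3p (r = 0.945), miR-99a-5p (0.931) and miR-23b-3p (0.923). For miR-29c-3p they were miR-141-3p (0.844), miR-3096b-3p (0.825) and miR-30b-5p (0.812). miR-29b-3p was most like miR-21a-3p (0.676), miR-221-5p (0.672) and miR-21a-5p (0.643), and the hairpin mir-29c most like miR-146a-5p (0.791), miR-145a-3p (0.756) and miR-21a-5p (0.717).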

How the data were processed

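Small RNA of BV-2 cells was sequenced from TruSeq libraries in a single pool on an Illumina sequencer. By the methods, the authors aligned reads with BWA to mouse miRBase, allowing at most 10 mappings, and analysed counts with edgeR. The miRBase version used for the alignment and the counting of reads with several mappings are not given in the sources used here.

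The authors deposited CPM on library sizes times TMM factors, without a filter. In 11 of the 18 samples these deposited values exceed the total of plain CPM and were recorded as signal, the same quantity. All values (100%) were whole multiples of 1 read within 0.01 read, and TMM factors recomputed from these reads gave the deposited scale to a relative deviation of 6.46e-11.

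Counts had been assumed in choosing the tests, with edgeR. As the values are CPM, log2(CPM + 1) was tested with limma 3.58.1 (mean-variance trend, R 4.3.3) in all 6 groups together, with edgeR 4.0.16's quasi-likelihood test and DESeq2 1.42.0 on the recovered reads as alternatives. A minimum of 10 reads over the 18 samples set the features tested (1363, of which 642 hairpins and 721 mature). Fold changes are on the log2(CPM + 1) scale, which understates those of low features. Groups were taken from the labels. Pairs of groups were called at p of at most 0.005 with 1.5-fold, and the F test, interactions, the LPS effect pooled over cannabinoids and the term for samples 22 to 27 at a Benjamini-Hochberg adjusted p of at most 0.1 over all tested features. Tests were 2-sided. The script was tested on simulated data. Named features were all members, markers, 3 LPS-induced miRNAs, the reference miRNAs and the 3 most alike to the 3p arms and mir-29c.

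The members, lists and tests were chosen with earlier results of these data known. The tests of the term for samples 22 to 27 and the block of 3 runs of 6 consecutive sample numbers were added after the data were seen. Sequences are from RefSeq (GRCm38.p6), in which all 11 members were matched by name.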

Additional observations from a re-analysis of the deposited data

How the results depend on the processing

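Up to 34 alternatives were run for each comparison, of which 18 left out 1 sample each. No called value changed direction. The F test, THC versus control, CBD+LPS versus LPS, THC+LPS versus LPS, CBD+LPS versus THC+LPS and both interactions called 0 members under every alternative. CBD versus control fell from 1 call to 0 when scaled by library size alone or by miR-103-3p and miR-191-5p, with filterByExpr (which did not test mir-29b-1), with at least 1 read as the filter, in edgeR, in DESeq2, in samples 28 to 39 alone, with the replicate block described below and with the adjusted p as the threshold, and ranged from 0 to 1 when single samples were left out. LPS versus control rose from 0 to 1 with a term for the summed level of mir-6243, mir-6240 and mir-6236, features whose share of reads ran from 0.151 to 4.55%. With that term CBD+LPS versus control also rose to 1 and CBD versus THC to 1 (mir-29b-1, log2 2.59), and THC+LPS versus control to 2. CBD+LPS versus control was 1 without a mean-variance trend. The pooled LPS effect fell from 1 to 0 when scaled by miR-103-3p and miR-191-5p (mir-29c at log2 0.91) and in samples 28 to 39 alone. Leaving out single samples gave 0 to 1 calls for LPS versus control (mir-29b-1 without control sample 28, mir-29c without control sample 34), 0 to 1 for CBD+LPS versus control (without the same samples), 0 to 2 for THC+LPS versus control (0 without THC+LPS sample 33, 2 without THC sample 37, and 1 without control sample 28, where mir-29b-1 replaced mir-29c), and 0 to 1 for pooled LPS (0 without LPS sample 23 or 29, CBD sample 24, THC sample 25, CBD+LPS sample 38 or THC+LPS sample 33). The cause of these changes was not tested. The term for samples 22 to 27 called 3 members under every scaling, in edgeR and with each sample left out, but under scaling by miR-103-3p and miR-191-5p miR-29b-1-5p took the place of miR-29a-3p. Fitting that term left both mir-29c calls in place (adjusted p = 0.0555 for THC+LPS and 0.0432 for pooled LPS). Depth limits the hairpins, none of which exceeded 28 reads in a sample. The labels use each number once and state no pairing, but the numbers form 3 runs of 6 (22 to 27, 28 to 33 and 34 to 39) with 1 sample of each group. With these runs as a replicate block, added after the data were seen, CBD versus control called 0 members in place of 1, and the count in every other comparison of treatments was as without the block. The correlation of the samples' deviations from their group means did not pair all samples of a run (median r = 0.11, 0.06 and 0.03 within the runs, with a lowest r of -0.43, and -0.03 between runs).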
